A study of Mus musculus with 41 samples.

Results

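The copines Cpne1 to Cpne9 were followed in the lungs and livers of mice that inhaled titanium dioxide nanoparticles. The 9 genes were found by their symbols in the probe annotation of the mRNA arrays, which gave 17 of the 41174 probes, with 3 probes each for Cpne3, Cpne4 and Cpne5, 2 each for Cpne1 and Cpne8 and 1 each for the other members. All probes were kept apart. The family was chosen by the measured lung values, because Cpne5 was lower in exposed than in control lung in these same arrays, so the lung exposure values are given as a description without a test. The Cpne5 values between the tissues are a description too, since they hold the same lung arrays. Tests were made in the liver and, for the other copines, between the tissues.

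The animals were female C57BL/6 mice (C57BL/6BomTac in the study's methods), time-mated but not pregnant. Their age is labelled as equivalent to GD4 for the mRNA arrays, and as 11 to 13 weeks on the microRNA arrays of the same study. Exposed mice breathed surface-coated nanoTiO2 for 1 hour a day on 11 days, at 40 mg/m3 in the mRNA array labels and 42.4 mg/m3 in those of the microRNA arrays, control mice breathed filtered air, and tissue was taken 5 days after the last exposure. Lung RNA came from 7 exposed and 6 control mice and liver RNA from 7 exposed and 8 control mice, 1 array per mouse and tissue. Of these, 6 exposed and 6 control mice gave both tissues. Tissue RNA was labelled with Cy5 and hybridised against universal mouse reference RNA, a pool from mouse cell lines, labelled with Cy3. Every level below is a log2 ratio of tissue over reference at 1 probe, so 0 is the level in the reference and levels of different probes cannot be set against each other. No dyes were swapped, so any difference between the dyes at a probe is part of its ratio. On every slide the exposed mice took the first pair of positions and the controls the other pair, so position and exposure cannot be told apart. Lung and liver were hybridised on separate slides and read with different software versions, so tissue and array batch cannot be told apart either.

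Copines are soluble proteins that bind phospholipid membranes when calcium rises. Each has a pair of C2 domains, the calcium- and lipid-binding modules also found in protein kinase C and the synaptotagmins, and at the other end a von Willebrand factor A domain through which copines hold partner proteins. They are regarded as adaptors that carry such partners to the membrane after a calcium signal. Cpne1, Cpne2 and Cpne3 are expressed in many tissues, whereas Cpne6, first described as N-copine, is known mainly from the brain, where it acts in dendritic spines.

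The Cpne5 results turned on 3 probes that the array annotation places on different stretches of the same transcript. In the mm7 assembly named in the lung file headers, all lie on the minus strand of chromosome 17. From the 5′ side of the gene, the first is A_52_P11920, whose ends map to chr17:27403837-27418290. That span of 14454 bases is longer than the 60-base probe, so the probe crosses at least 1 intron. The second, A_51_P124345, maps 52010 bases further along at chr17:27351767-27351826, and the third, A_52_P686043, follows after another 821 bases at chr17:27350886-27350945. The first probe is shown whole beside the intron-crossing Cpne8 probe A_52_P383653 (chr15:90731475-90732152, minus strand), because both copines differed between the tissues. Capitals mark the bases that the pair share in their best ungapped alignment. Of the other 3 probes the first 30 bases are shown, all in lower case, to show which stretches were read.
Cpne5 A_52_P11920: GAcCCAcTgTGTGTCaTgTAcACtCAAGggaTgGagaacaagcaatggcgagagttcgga
Cpne8 A_52_P383653: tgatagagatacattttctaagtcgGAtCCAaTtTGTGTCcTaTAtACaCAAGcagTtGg
Cpne5 A_51_P124345: tgtctggtcctgtgcctgtctgagactgtc
Cpne5 A_52_P686043: acatggatcgctatcaccgtggatcatggt
Cpne8 A_51_P427563: agctgttttactggagaatatgcataatcc
The Cpne5 and Cpne8 probes shared 23 of the 35 bases over which they overlapped, or 65.7%. This was the highest share of any pair of probes to different copines in its best alignment. The most bases shared by any such pair were 27 of 60 (45%), between Cpne3 and Cpne8.

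Array depth and tissue identity were checked first. Between 55.1% and 70.5% of the spots of an array were well above background in Cy5, as flagged by the scanner software. Of 12 probes of 8 lung epithelial genes, 11 were called higher in control lung than in control liver and 1 was not called, whereas all 11 probes of 7 hepatocyte genes were called lower. Of the copine probes, 10 were well above background in Cy5 on all lung arrays. A_52_P11920 was above it on all 6 control and 4 of 7 exposed lung arrays. The 3 Cpne4 probes, the Cpne6 and Cpne9 probes and the third Cpne5 probe were above it on at most 1 lung array. Their lung ratios lay near 0 because both channels were near background, and they bear on no lung level.

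Cpne5 was lower in the lungs of exposed mice at both of the probes that gave a signal there. At A_51_P124345 the log2 ratio was 0.32, 0.56 and 0.92 (lowest, median and highest of 7) in exposed lungs and 1.46, 1.70 and 1.85 (of 6) in control lungs. Each exposed lung was below each control lung. The group means were 0.63 ± 0.20 (SD, n = 7) and 1.70 ± 0.13 (SD, n = 6), a difference of -1.07 with a standard error of 0.087, which is 2.10-fold lower. The ratio of Cy5 lung signal to Cy3 reference signal was thus 3.24 in control lung and 1.55 in exposed lung. As lung tissue is a mixture of cells, fewer cells that express a gene and less of its RNA per cell cannot be told apart.

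At A_52_P11920 the log2 ratio was 0.01, 0.06 and 0.19 in exposed lungs and 0.39, 0.45 and 0.69 in control lungs. Here too the groups did not overlap. The difference was -0.40 with a standard error of 0.051. This spot was dim, with a Cy5 intensity of 73 to 79 in exposed and 88.5 to 139 in control lungs over a local background of 58 to 64, so the exposed values lay close to background. The size of its difference depended on how background was treated and was -1.41 with the processed signals of the scanner software. The third probe, A_52_P686043, was not well above background on any array of either tissue, and its difference of -0.03 carries no level. Over all 41172 probes fitted in the lung, 91 (0.221%) had an adjusted p under 0.05, of which 9 (0.0219% of all) were lower in exposed lungs, and 163 (0.396%) had groups that did not overlap. The same 2 Cpne5 probes were among both, as the choice of the family on this contrast entails. How many probes were called depended on the processing. For Cpne5 the calls that follow describe the processing and are no test, since this contrast chose the gene. With normexp fitted on all spots, 15 probes were called, 1 of them lower, which was A_51_P124345. With each array centred on its median, 7 were called and 0 of them lower, so neither Cpne5 probe was. With the scanner software's processed signals, 74 were called, 8 of them lower, with A_51_P124345 among them and A_52_P11920 not.

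**Figure D1:**
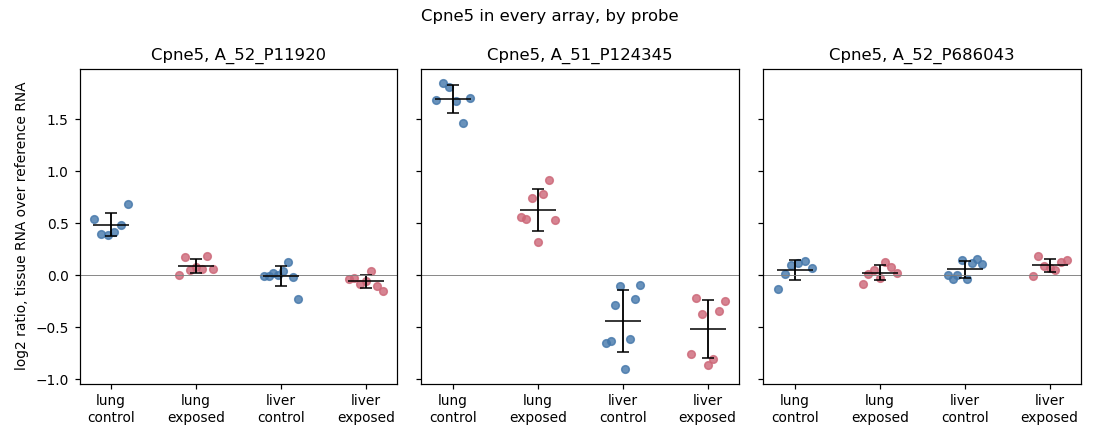
Log2 ratio of tissue RNA over reference RNA (vertical axis) at the 3 Cpne5 probes, 1 point per array, for control (blue) and exposed (red) lung and liver, with the mean and SD of each group in black. At A_51_P124345 the exposed lungs sit between 0.32 and 0.92, below the control lungs at 1.46 to 1.85 and above the livers, and at A_52_P686043 the groups lie together near 0.

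The Cpne5 difference was in the channel that held the lung RNA. With the channels normalized apart, the log2 Cy5 signal of A_51_P124345 averaged 8.35 ± 0.26 (SD, n = 7) over the exposed lungs and 9.55 ± 0.23 (SD, n = 6) over the controls, a difference of -1.20. The Cy3 signal of the common reference differed by -0.14 between the same arrays. As scanned, the Cy5 intensity of this spot ran from 270.5 to 554 in exposed lungs and from 539 to 1150 in control lungs, over a local background of 58 to 66, and the Cy3 intensity from 165 to 229 and from 179 to 243. Within the 3 lung slides that held both groups, exposed minus control was -1.22, -1.0 and -1.03. The fourth slide held only exposed lungs, at 0.53 and 0.92. Leaving out each lung array in turn gave -1.12 to -1.02.

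**Figure D2:**
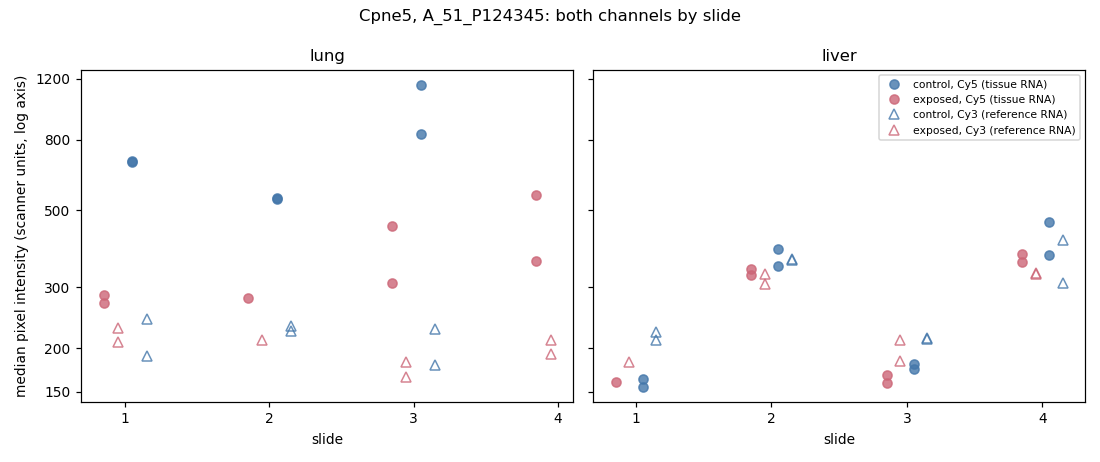
Median pixel intensity of the Cpne5 probe A_51_P124345 (vertical log axis, scanner units) by slide (horizontal axis) in lung and liver, for Cy5, which holds tissue RNA (filled circles), and Cy3, which holds reference RNA (open triangles), in control (blue) and exposed (red) mice. On lung slides 1 to 3 the control Cy5 points lie above the exposed ones, while in liver both channels are dimmer on slides 1 and 3 than on slides 2 and 4.

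The other copines with a lung signal differed little between exposed and control lungs. The 9 probes of Cpne1, Cpne2, Cpne3, Cpne7 and Cpne8 had differences of -0.12 to 0.23, against a median of 0.00 over all probes. The highest was that of Cpne2, whose exposed lungs averaged -1.14 ± 0.18 (SD, n = 7) and whose control lungs averaged -1.37 ± 0.24 (SD, n = 6), a difference of 0.23 with a standard error of 0.10. Cpne7, a copine best known from tooth-forming cells, was at 0.47 ± 0.14 and 0.32 ± 0.09 with a difference of 0.15 and a standard error of 0.065. In both, the ranges of the groups overlapped. The 3 probes of Cpne3, which is known to bind the receptor ErbB2, gave -0.12, -0.06 and 0.04. Those of Cpne8 gave -0.05 and -0.03, and those of Cpne1, which is known to bind the p65 subunit of NF-κB, gave -0.07 and 0.08.

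**Figure D3:**
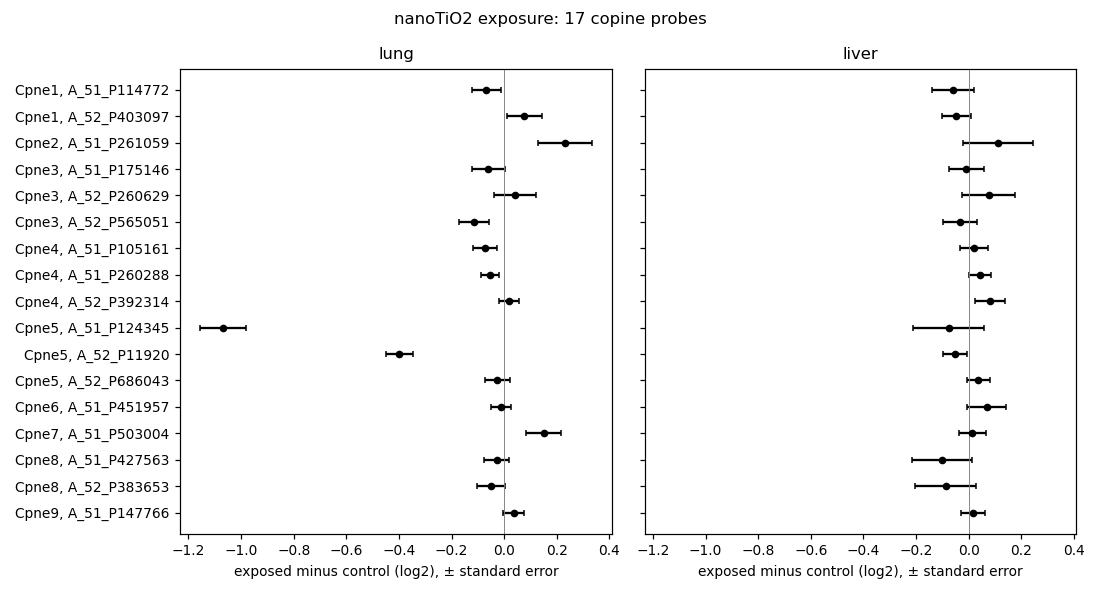
Exposed minus control (horizontal axis, log2) with its standard error for the 17 copine probes in lung (left) and liver (right). In lung only the Cpne5 probes A_51_P124345 at -1.07 and A_52_P11920 at -0.40 lie beyond -0.12 to 0.23, and in liver all probes lie between -0.10 and 0.11.

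No probe of the copines' relatives was called in the lung, where 0.221% of all probes were. At that share, lists of this size tend to hold none. Since Cpne5 was chosen on this contrast, the counts below do not set the copines apart. None of the 19 annexin probes, 34 synaptotagmin probes, 45 probes of C2-domain kinases and phospholipases or 30 probes of ferlins and other C2-domain membrane proteins had an adjusted p under 0.05 between exposed and control lungs, nor did any of 19 probes of proteins reported to bind copines. At an unadjusted p under 0.05 these counts were 1, 3, 5, 1 and 2, where 7.09% of all probes lay under it. Their median differences were 0.03, 0.01, 0.00, 0.00 and 0.02, against -0.03 for the copines.

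Several cell type markers differed between the same lungs. Of 8 alveolar macrophage probes, Siglecf differed by -0.70 (adjusted p = 0.01 in limma's fit), Ear1, an eosinophil-associated ribonuclease, by -0.48 (adjusted p = 0.00065) and Marco, a scavenger receptor, by 0.57 (adjusted p = 0.0093). All 3 kept their direction but were not called in 3 of 9 alternatives, namely normexp on all spots, median centering and the scanner software's processed signals, where Siglecf differed by -1.06, -0.62 and -1.03. The mean level of that list ran from 2.50 to 2.94 in exposed and from 2.53 to 2.79 in control lungs. Over all probes 0.221% passed the threshold, and of the cell type lists only that of alveolar macrophages had a member past it. None of the 14 B cell probes passed, which is near that share. Their median difference was -0.01, and their mean level ran from 0.64 to 1.32 in exposed and from 0.61 to 1.06 in control lungs. Lists with no member past the threshold but median differences over 0.2 in size were those of brown fat (0.35, 5 probes), heart muscle (0.29, 15 probes), hepatocytes (0.23, 11 probes) and neutrophils (-0.23, 9 probes). The mean level of the brown fat list ran from 0.92 to 4.69 in exposed and from 0.50 to 3.61 in control lungs, of heart muscle from 1.75 to 2.86 and from 0.86 to 2.68, of hepatocytes from 0.22 to 1.43 and from 0.11 to 0.46, and of neutrophils from 1.02 to 1.94 and from 1.22 to 2.25. The part of these cell types in the Cpne5 values was not tested.

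The genes whose lung levels ran most closely with Cpne5 from mouse to mouse were found from deviations from the group means over the 13 lung arrays, so that the difference between the groups itself plays no part. The comparison covered 26597 probes, and the values describe these arrays without a test, since they are the extremes of that number. The 5 highest were the probe of NM_013716 (G3bp1, a stress granule protein, filed under the clone name RP23-336J1.4) with Pearson's r of 0.91, the expressed sequence tag BY755665 at 0.90, the cDNA AK047664 at 0.89, the unnamed transcript NAP033385-1 at 0.89 and Txndc1 (Tmx1), a thioredoxin of the endoplasmic reticulum, at 0.89. Spearman's rho for these was 0.83, 0.86, 0.79, 0.94 and 0.86. Without the 2 mice farthest from the median deviation of Cpne5, mice 13 and 20, r was 0.80, 0.95, 0.76, 0.94 and 0.87. The 3 lowest were Ccrk (Cdk20) at -0.89, Entpd3, an ectonucleotidase, at -0.86 and the signalling adaptor Crk at -0.86, with rho of -0.85, -0.79 and -0.81 and with r of -0.81, -0.84 and -0.68 without those mice. NAP033385-1 had the largest lung exposure difference of the 8, at -0.32. Among copines, Cpne2 had an r of 0.57 with Cpne5 and the other Cpne5 probe with a lung signal, A_52_P11920, an r of 0.01.

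In the liver no copine probe was called between exposed and control mice. None of the 17 passed limma's test after Benjamini-Hochberg adjustment or at an unadjusted p under 0.05, and none of all 41174 probes passed it (0% called), while 1003 (2.44%) had an unadjusted p under 0.05. The groups overlapped for each copine probe, as for all but 10 (0.0243%) of the probes. The differences ran from -0.10 for Cpne8 to 0.11 for Cpne2. At the Cpne5 probe A_51_P124345 the log2 ratio was -0.86, -0.37 and -0.22 (lowest, median and highest of 7) in exposed livers and -0.90, -0.45 and -0.09 (of 8) in control livers, and the groups overlapped through most of their range. The difference was -0.08, with a 95% interval of -0.36 to 0.21. The exact two-sided permutation p was 0.61 over 6435 splits of the 15 arrays. Both took the arrays without regard to slide, so they hold the spread between slides that is given below. Across the 17 probes the exact p ran from 0.17 to 0.90.

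The spread of Cpne5 among livers went with the slide. On slides 1 and 3 the log2 ratio of A_51_P124345 was -0.90 to -0.61 over 7 arrays, and on slides 2 and 4 it was -0.37 to -0.09 over 8 arrays, with no overlap and with exposed and control mice in both. The Cy5 intensity was 155 to 180.5 on the first pair and 326 to 464 on the second, and the Cy3 intensity of the reference was 182 to 223 and 306 to 410. Slides took 92.0% of the variance of this probe within the liver groups, against a median of 36.6% over 41109 probes. The first pair was also dimmer as a whole, with 55.1% to 59.5% of spots well above background against 63.2% to 70.5%. Within slides 1 to 4, exposed minus control was -0.11, -0.10, -0.08 and -0.13. Fitting the slide as a block gave -0.11 with a standard error of 0.050, an unadjusted p of 0.053 and an adjusted p of 0.98 in limma's fit. In the lung the slides took 21.7% of the variance of this probe.

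Between the tissues of control mice, 5 of the 14 copine probes other than Cpne5 passed limma's test after Benjamini-Hochberg adjustment, 4 of them higher in lung. This stands against 58.2% of all probes called, 29.7% higher and 28.4% lower in lung, so the share of copines called was below that of the array. That share counts the probes of Cpne4, Cpne6 and Cpne9 and the third Cpne5 probe, which were near background in lung. The groups did not overlap for 5 copine probes, against 40.9% of all probes. These were Cpne1 A_52_P403097, both Cpne8 probes and, without a test, the Cpne5 probes A_51_P124345 and A_52_P11920. Cpne5 and Cpne8 led the copines that were higher in lung, and Cpne2 was the one that was lower.

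Cpne5 was 2.14 higher in log2 ratio in control lung than in control liver at A_51_P124345 (standard error 0.12), which is 4.40-fold. As these control lungs were part of what chose the gene, no test is given. The livers lay at -0.44 ± 0.30 (SD, n = 8) and the lungs at 1.70 ± 0.13 (SD, n = 6), with each lung above each liver. At A_52_P11920 the difference was 0.50 (standard error 0.058), where only 2 of 8 control livers gave a signal well above background. It was 2.57 with the scanner software's processed signals.

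Cpne8 was higher in lung at both probes. At A_51_P427563 the log2 ratio was -0.87, -0.72 and -0.66 (lowest, median and highest of 6) in control lungs and -2.55, -2.21 and -2.00 (of 8) in control livers, without overlap. The difference was 1.49 (standard error 0.081, adjusted p = 3.1e-11), which is 2.82-fold. The intron-crossing probe A_52_P383653 gave 1.08 (standard error 0.092, adjusted p = 1.3e-08), from -0.16 ± 0.13 (SD, n = 6) in lung and -1.25 ± 0.22 (SD, n = 8) in liver. The exact permutation p was 0.000333 for both, the smallest that 3003 splits can give. It took the arrays as separate animals, though 6 control mice gave both tissues. With the mouse as a block, limma's fit gave 1.45 and 1.03 (adjusted p of 1.3e-07 and 8.9e-06).

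The 2 probes of Cpne1 did not give the same answer. A_52_P403097 was 0.64 higher in control lung (standard error 0.063, adjusted p = 8.5e-08), at -0.11 ± 0.12 against -0.76 ± 0.12, whereas A_51_P114772 differed by 0.07 (adjusted p = 0.51, 95% interval -0.11 to 0.25). On the mm7 assembly the first maps to chr2:155813012-155813071 and the second to chr2:155819228-155819439, both on the minus strand, so that A_52_P403097 lies on the 3′ side. A_51_P114772 was the dimmer spot. Its Cy5 intensity was 92 to 150 in control lungs over a local background of 58.5 to 61, against 737 to 2003 at A_52_P403097. The part of this dimness in the unlike answers was not tested. Cpne7 was 0.19 higher in lung (standard error 0.056, adjusted p = 0.0087). Cpne2 was 0.51 lower in log2 ratio in lung, a difference of -0.51 (standard error 0.13, adjusted p = 0.0023), with lungs at -1.70, -1.35 and -1.10 and livers at -1.23, -0.84 and -0.41, so that the ranges overlapped. The 3 probes of Cpne3 differed by -0.08 to 0.01 and did not pass the test, and their 95% intervals lay within -0.30 to 0.15.

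The exposed mice gave the tissue differences again in other animals. Their arrays mostly shared slides with those of the controls, so tissue and array batch cannot be told apart here either. There 6 of the 14 copine probes other than Cpne5 passed the test, 4 of them higher in lung. Of all probes 61.5% did, 31.1% higher and 30.4% lower. The groups did not overlap for 5 copine probes, with the untested Cpne5 A_51_P124345 among them, against 43.3% of all. Leaving Cpne5 aside, each copine probe called in control mice was called in exposed mice too, in the same direction. Cpne8 was higher in lung by 1.57 and 1.12 (adjusted p of 4.1e-10 and 1.9e-08), close to the 1.49 and 1.08 of the control mice. Cpne1 A_52_P403097 was higher by 0.77 (adjusted p = 4.5e-09) and Cpne7 by 0.32 (adjusted p = 0.00019). Cpne2 differed by -0.39 (adjusted p = 0.0061). The smallest exact permutation p that 3432 splits can give was 0.000583, reached by Cpne1 A_52_P403097, Cpne7 and both Cpne8 probes. These splits too took the arrays as separate animals, though 6 exposed mice gave both tissues.

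Cpne5 was higher in lung than in liver in exposed mice as well. At A_51_P124345 exposed lungs lay 1.14 above exposed livers (standard error 0.12), which is 2.21-fold. That this is less than the 2.14 of the controls restates the lung values on which the gene was chosen. The order of this gene was therefore control lung, exposed lung and then both liver groups. Neighbours did not overlap but for the livers, whose ranges did. At A_52_P11920, where no exposed liver was well above background, the difference was 0.15, and 0.11 when only the exposed livers of slides 1 and 3 entered. The liver level there has only an upper limit, and no fold is given. The 2 tissues' differences between exposed and control were not tested against each other, because the lung contrast chose the gene.

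**Figure D4:**
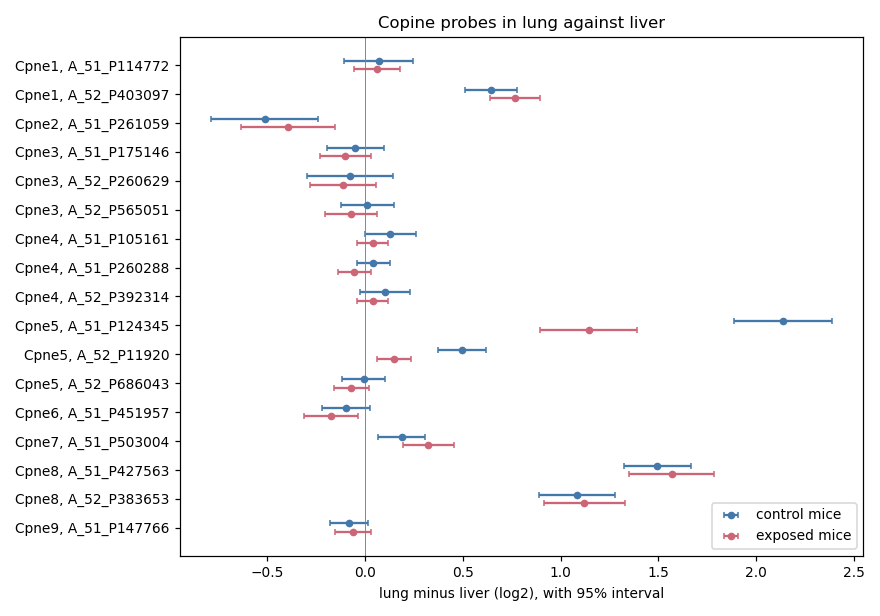
Lung minus liver (horizontal axis, log2) with 95% intervals for each copine probe, in control mice (blue) and exposed mice (red). Cpne8 and Cpne1 A_52_P403097 have nearly the same difference in both sets of mice, while Cpne5 A_51_P124345 stands at 2.14 in controls and 1.14 in exposed mice.

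Cpne6, the brain copine, was the other probe called in exposed mice, at -0.17 in lung against liver (standard error 0.065, adjusted p = 0.028). No lung array was well above background for it, while 4 of 7 exposed and 5 of 8 control livers were. In control mice the difference of -0.10 was not called (adjusted p = 0.17). The lung level has only an upper limit, and no fold is given. The liver signal went with the slides here as well. All 8 livers on slides 2 and 4 were well above background, with ratios of 0.11 to 0.33, and 1 of 7 on slides 1 and 3, with ratios of -0.10 to 0.10. With the exposed livers of slides 1 and 3 alone, the difference was -0.01 (adjusted p = 0.87). Cpne4 and Cpne9 gave at most 3 livers of 8 and 2 livers of 8 above background in the controls, and no call between the tissues.

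Other calcium- and C2-dependent proteins were called in both directions between control lung and liver, as were 29.7% (higher) and 28.4% (lower) of all probes. Of 19 annexin probes, 12 were called higher and 3 lower in control lung, with a median of 0.79 against 0.07 for the copines and -0.02 for all probes. The largest were Anxa3 at 4.95, Anxa1 at 4.22 and Anxa8 at 3.12, and the lowest were the 2 probes of Anxa13 at -2.20 and -1.03. Of 45 probes of C2-domain kinases and phospholipases, 26 were higher, led by the phospholipase Plcd1 at 2.19 and the protein kinases Prkch at 1.89 and Prkcd at 1.73, and 3 were lower. Of 30 probes of ferlins and other C2-domain membrane proteins, 12 were higher, led by both probes of Fer1l3 (myoferlin) at 3.94 and 3.86, and 6 were lower, among them Unc13a at -0.92. Of 34 synaptotagmin probes, 5 were higher and 12 lower, from Syt1 at -2.81 to Syt11 at 1.21. Of 19 probes of proteins reported to bind copines, 3 were higher, with the receptor Erbb2 at 1.86 and Rela, the gene of p65, at 0.68, and 12 were lower, with radixin (Rdx) at -0.81.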

How the data were processed

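The lung and liver mRNA arrays were analysed, and the microRNA arrays were not used here. The authors deposited scanner output for each array (Agilent Feature Extraction 9.5.3.1 for lung and 10.1.1.1 for liver), with spot signals as intensity values that are not normalized. They also deposited a table of LOWESS-normalized log2 ratios, whose values correlated at 0.929 to 0.993 per array with log ratios of the signals without background subtraction. It was used as an alternative. The direction of every ratio is Cy5 tissue over Cy3 reference, per the labels.

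Median intensities were corrected by normexp (offset 50), fitted on the spots without a scanner outlier flag, because a few such spots drew the fitted Cy5 background mean down to -972 on some arrays. With them left out of the fit it lay between -8.44 and -4.12. Arrays were normalized by loess with control spots at weight 0, outlier spots were dropped and spots of a probe averaged. Each copine probe had 1 spot and none was an outlier or saturated. Groups were compared by limma 3.58.1 (lmFit, eBayes) in R 4.3.3 with Benjamini-Hochberg adjustment over all probes and a threshold of 0.05, supported by the packages jsonlite 2.0.0, statmod 1.5.0 and data.table, version 1.17.8. Exact permutation tests were two-sided and took no account of slide or mouse. The fit was also run on simulated independent normal noise with differences added. Those data held no slide or mouse effects, so the run does not bear on them. Precision is set by the number of arrays. Each array is 1 mouse.

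Among the mRNA arrays, lung and liver samples with the same mouse number were taken as the same animal. Some of these numbers label mice of the other group on the microRNA arrays. Deviations of a mouse's lung and liver from their group means correlated at -0.07 to 0.21 over all probes in 12 mice, over 0.1 in 4 of them. In 7 of the 12 the lung correlated best with its own liver among the paired livers of its group. The mouse as a block changed no copine call. A probe well above background on no array of a group has only an upper limit there.

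The members and the lists of related genes and markers were chosen with earlier results of these data known. Genes were named by a rule: all copine probes, the 5 probes most and 3 least correlated with the Cpne5 probe of the largest lung difference, and the called members of a list with the largest differences, at most 3 in each direction. Coordinates are those of the array annotation (mm7), and current symbols come from RefSeq accessions (GRCm38.p6). Alternatives changed the background correction, normalization, dim-probe filter, outlier spots, slide block, mouse block and single arrays. The tissue comparisons with only some liver slides were chosen after seeing the data.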

Additional observations from a re-analysis of the deposited data

Results flagged for a closer look

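Of 68 combinations of a copine probe and a group, 5 had 1 array far from the others by Dixon's criterion, where chance flags about 5%. In exposed lung, mouse 12 lay at -0.32 for Cpne1 A_52_P403097, against -0.08 to 0.09 in the others, and mouse 19 at 0.024 for Cpne3 A_51_P175146, against 0.16 to 0.23. The other 3 were spots not well above background, namely control lung 26 at -0.038 for Cpne4 A_51_P260288, control liver 45 at -0.22 for Cpne5 A_52_P11920 and control liver 37 at -0.19 for Cpne9.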

How the results depend on the processing

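The lung differences of Cpne5 kept their sign under each alternative run. At A_51_P124345 the 9 alternatives gave -1.30 to -0.95 and at A_52_P11920 -1.41 to -0.35. The outer values of -1.30 and -1.41 both came from the scanner software's processed signals, which are background-subtracted, and leaving out single arrays gave -1.12 to -1.02 and -0.42 to -0.36. Over all probes of the lung, 91 were called, against 15 with normexp on all spots and 7 with median centering. In the liver 0 copine probes were called under each of 9 alternatives and with each of 15 arrays left out. With the Cpne5 probes counted, 7 copine probes were called between control lung and liver. The alternatives gave 7 to 10, and single arrays left out gave 7 to 8. The counts of calls between the tissues hold Cpne5 probes, for which no test is given. Between exposed lung and liver 7 to 11 were called, but 13 with the processed signals, 6 of them higher in lung. Those signals moved the median of all probes to -0.11 in the control and -0.15 in the exposed tissue comparison. Cpne7 was not called in exposed mice with normexp on all spots (0.16, adjusted p = 0.21) or in control mice with only liver slides 2 and 4 (0.14, adjusted p = 0.064), and it was 0.65 and 0.73 with the processed signals. Cpne2 was not called in exposed mice with normexp on all spots (adjusted p = 0.08), median centering (adjusted p = 0.054) or liver slides 2 and 4 only (adjusted p = 0.052). The cause of these moves was not tested. With the mouse number as a replicate block and Cpne5 counted, 7 copine probes were called in control and 8 in exposed mice. These are the same numbers as without the block, and Cpne5 A_51_P124345 differed by 2.23 and 1.21. Cpne4, Cpne6, Cpne9 and the third Cpne5 probe were too dim in lung for any statement there.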
